A study of Mus musculus with 7 samples.

Results

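Stem-only sites are autosomal stretches of open chromatin that were called as peaks in mouse embryonic stem cells and in no list from neural progenitor cells. They were selected on the presence of peaks. A reproducible autosomal peak of the female stem cells counted as a member if it overlapped, by 1 bp or more, a peak in each of the 4 lists from male stem cells and no peak in any of the 6 lists from progenitors. Of 27538 autosomal peaks in the reproducible list of the female stem cells, 8070 met the rule, which is 29.3% (exact Clopper-Pearson 95% interval 28.8% to 29.8%). Absence from a list means that no peak was called there, since the files hold no reads for progenitors at sites without a progenitor peak. "Only" refers to the cell types in these lists.

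Open chromatin was measured by ATAC-seq, in which the Tn5 transposase inserts adapters into accessible DNA, in 7 samples with 1 sample per group. The 3 female lines were mESCs (line F1216, WT, grown with serum and LIF), NPCs labelled deltaFT (line sgdgb2) and WT NPCs (line C2), the NPCs grown with FGF and EGF. All came from an F1 cross of 129S1 and Cast:EiJ. The 4 male groups were J1 mESCs, called TXY, whose X chromosome carries an inducible Xist. They were TXY deltaRepA, which carries a deletion of RepA, with doxycycline at 2 ug/mL for 48 hours, TXY deltaRepA untreated, TXY WT with the same doxycycline and TXY WT untreated. Each female line is a single line with 2 libraries, and each TXY condition is 1 list from merged libraries. The source label of the mESC sample names neural progenitors, whereas its title and growth medium are those of stem cells, and the title was followed. The descriptions of both samples with doxycycline name a list without it, and titles were followed there too. The labels do not say what deltaFT removes.

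Embryonic stem cells hold an open chromatin landscape set by pluripotency factors such as OCT4, SOX2, NANOG and ESRRB, which bind enhancers far from genes as well as promoters. During neural differentiation these factors are lost and many of the enhancers close, whereas promoters of genes that every cell uses mostly stay accessible. Sites that differ between the alleles of a hybrid line are commonly used to find regulatory elements whose activity depends on the local sequence. The files give positions in build mm9 without gene names, and no annotation or genome of that build was used here. Sites are therefore named by position, and the label of the cell type was not checked against marker genes. No sequence is shown for the same reason.

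Shared sites, the comparison class, were the 11323 autosomal mESC peaks that overlapped a peak in all 4 TXY lists and in both reproducible NPC lists. The female mESC list held 6490181 reads in its 28907 peaks, of which 2567466 were assigned to an allele. The autosomal lists of the 2 libraries of a female line shared 0 identical entries, in each of the 3 lines. Intervals cover counting error only, since no molecular identifiers are recorded and duplicate reads may count more than once. Each group is 1 sample and the values are peaks called separately in each list, so no test between groups was run and each library or list is given on its own.

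Progenitor absence did most of the selecting. Of the 27538 autosomal mESC peaks, 10166 (36.9%) overlapped no peak in any NPC list, and 8070 of these (79.4%, 78.6% to 80.2%) were present in all 4 TXY lists. Another 942 of the 10166 were in 3 TXY lists, 533 in 2, 302 in 1 and 319 in none. Of the 24756 mESC peaks found in all 4 TXY lists, 32.6% were stem-only, and 957 more missed the rule through a single NPC list. All of these counts are what the rule used, and they are given as a description.

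Stem-only sites were, by median, somewhat smaller than autosomal mESC peaks as a whole. Over all autosomal mESC peaks the medians were 152 reads, 377 bp of width and 41.1 reads per 100 bp. Reads at stem-only sites ran from 19 to 2538, with a median of 130 and quartiles of 88 and 196. At shared sites the median was 247, with quartiles of 147 and 401. The median width was 340 bp at stem-only sites and 506 bp at shared sites. Per 100 bp of peak, stem-only sites held a median of 38.1 reads and shared sites 49.6. The authors' −log10 p gave the same order in each library, with stem-only medians of 10.3 in library 1 and 11.1 in library 2, and shared medians of 13.8 and 15.6. Stem-only sites are 29.3% of the autosomal peaks by number and held 20.8% of the reads in them, while shared sites held 61.0%. Fewer accessible cells and less access per cell cannot be told apart in bulk samples.

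The share of stem-only sites peaked in the middle of the range of strength. The autosomal mESC peaks were ordered by reads and cut into 10 bins of near equal size. In the weakest bin, with 64 reads or fewer, 31.9% were stem-only. In bin 5, with 126 to 152 reads, it was 39.9% (38.1% to 41.8%), the highest of the 10. In the strongest bin, with at least 441 reads, 7.93% (6.95% to 9.004%) were stem-only and 85.4% were shared. The strongest stem-cell peaks were mostly peaks of progenitors too. Reads per site therefore moved with class, and their part in which sites lack a progenitor peak was not tested.

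**Figure D1:**
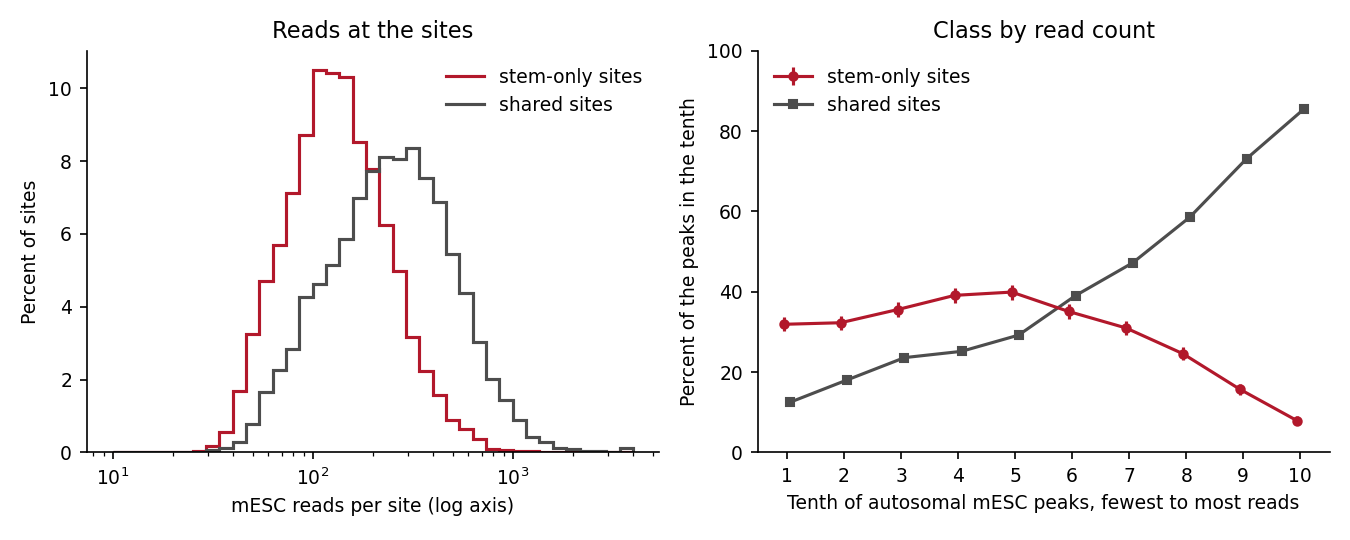
Left, percent of stem-only and shared sites by mESC reads per site (log axis, values past the last bin drawn in it). Right, percent of each of 10 read bins of the 27538 autosomal mESC peaks that was stem-only (exact 95% intervals) or shared, from fewest to most reads: stem-only sites reach 39.9% in bin 5 and 7.93% in the last.

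The 10 members with the most reads are given by their alleles. At 3 of them, outside chromosome 12, both alleles were read. The site on chromosome 3 at 141511914 to 141512630 held 1020 reads, 435 of the first-listed allele and 479 of the other. Its −log10 p was 35.8 in mESC library 1 and 35.0 in library 2, and 89.5 in TXY deltaRepA with doxycycline, 93.5 in deltaRepA without, 81.6 in TXY WT with and 111 in WT without. The nearest NPC peak lay 4854 bp away. On chromosome 4, the site at 146034367 to 146035348 held 1860 reads with a −log10 p of 51.8 and 53.7 in the 2 libraries, and that at 146649154 to 146649990 held 1201 reads with 45.2 and 45.3. Allelic reads were 301 first-listed and 158 second-listed at the site with 1860, and 369 and 210 at the site with 1201. These 3 sites stood at percentiles of 97.2 to 99.97 in the 6 stem-cell lists.

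Another 4 lay on chromosome 12, where the second-listed allele held most reads at members and at other peaks alike. They were at 102234237 to 102235113 with 1269 reads, 87842513 to 87843157 with 1205, 118499488 to 118500182 with 1017 and 118411387 to 118412189 with 1008. Their first-listed allele held 18.7%, 24.4%, 25.9% and 24.4% of the allelic reads. The last 3 had no allelic read. On chromosome 2 the site at 176858397 to 176859222 held 1743 reads, none of them allelic, with a −log10 p of 75.04 in library 1 and 58.1 in library 2, and stood at percentiles of 99.7 to 99.98 in the 6 lists. The members on chromosome 11 at 3035026 to 3035576, with 2538 reads, and at 3057791 to 3058096, with 1362 reads, had −log10 p values of only 8.48 and 7.42 in library 1. Read number and enrichment therefore did not order these sites alike.

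Within each stem-cell list the matched peaks of stem-only sites ranked below those of shared sites. A high rank of both classes follows from the rule, since every site had to be a reproducible mESC peak with a peak in all 4 TXY lists, and the levels are given as a description. Ranked by −log10 p among all autosomal peaks of the same list, the median stem-only site stood at percentile 86.8 in TXY deltaRepA with doxycycline, 85.0 in deltaRepA without, 82.1 in TXY WT with and 85.0 in WT without. The median shared site stood at 92.1, 91.1, 93.7 and 93.6 in the same lists. In mESC libraries 1 and 2 the medians were 75.8 and 72.1 for stem-only sites and 87.2 and 86.4 for shared sites.

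The step between the classes was wider in the TXY WT lists than in the deltaRepA lists, with and without doxycycline. A measure that does not depend on the length of a list is the percent of all pairs of a stem-only and a shared site in which the stem-only site had the higher −log10 p. It was 37.0% in deltaRepA with doxycycline and 37.5% without, and 22.1% in WT with doxycycline and 26.9% without. In the mESC libraries it was 32.1% and 30.1%. The 2 genotypes were separated by more than the 2 doxycycline states of either genotype, and by more than the 2 mESC libraries from each other. Each genotype is 1 line and each condition 1 merged list, so genotype, line and library preparation cannot be told apart.

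**Figure D2:**
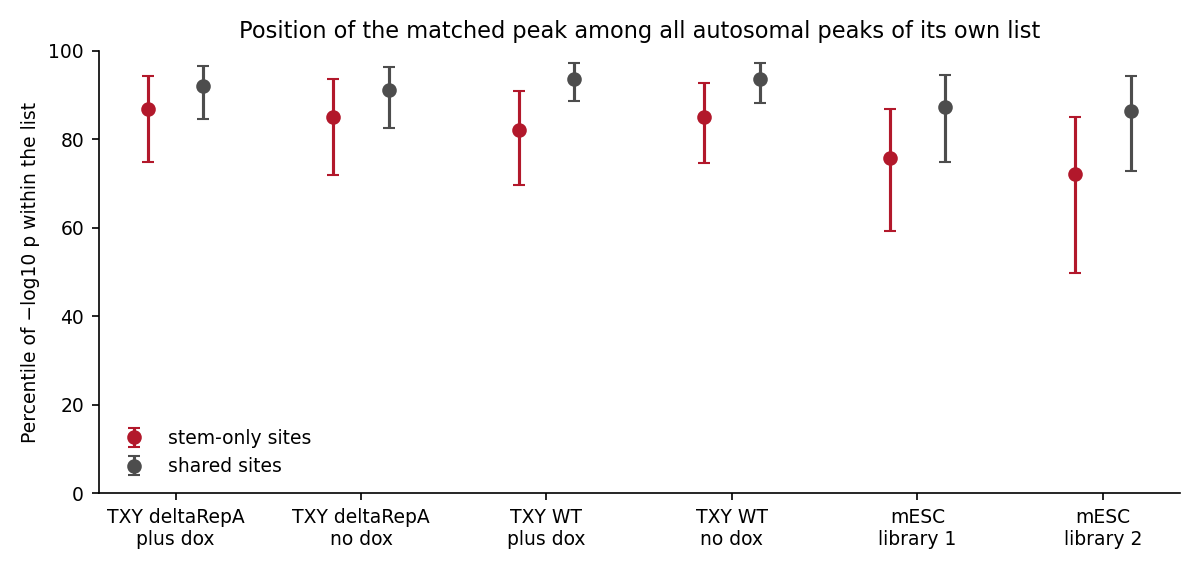
Median (point) and quartiles (bars) of the percentile of −log10 p that the matched peak held among all autosomal peaks of its own list, for 8070 stem-only and 11323 shared sites. Stem-only medians lie between 72.1 and 86.8, below the shared median of each list.

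Over the 8070 sites, Spearman's rho of −log10 p was 0.87 between deltaRepA with and without doxycycline, 0.84 between WT with and without, and 0.75 between the mESC libraries. Between deltaRepA and WT lists it was 0.71 to 0.75, and between TXY and mESC lists 0.46 to 0.56. The order was thus kept best between the doxycycline states of a genotype, while the mESC libraries were no closer to each other than the closest pair of deltaRepA and WT lists. For shared sites the values were 0.89 and 0.87 between doxycycline states, 0.79 to 0.85 between genotypes, 0.81 between mESC libraries and 0.69 to 0.71 between TXY and mESC lists. These are descriptions across sites, which share the libraries and the peak widths.

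The rule did not use allele counts, but they are not independent of it. Among sites with no NPC peak, those with a low first-listed allele were rarer with each further TXY list, as given below. Of the stem-only sites, 6916 had at least 10 allelic reads. The other 1154, which include 485 with none, are not counted below. The strain of each allele column is not named in the files. Pooled over these sites the first-listed allele held 48.9% of allelic reads (308148 of the first-listed, 322145 of the second-listed), and 50.5% without chromosome 12. At shared sites it held 48.2%, and 49.4% without chromosome 12. On the other 18 autosomes single values ran from 46.6% to 53.1% at stem-only sites and from 47.1% to 51.0% at shared sites. On chromosome 12 it held 32.7% at stem-only sites and 31.9% at shared sites.

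Single stem-only sites were more often unequal between the alleles than shared sites. A site was called unequal where either allele held 20% or less of at least 10 allelic reads. Among stem-only sites 463 of 6916 were called, 6.69% (6.12% to 7.31%), and among shared sites 151 of 9824, 1.54% (1.30% to 1.80%). Over all 23243 autosomal mESC peaks with as many reads the share was 4.98%. Sites with no NPC peak that missed at least 1 TXY list were unequal more often than stem-only sites, 316 of 1667 (18.96%). Without chromosome 12 the values were 5.76% at stem-only sites, 1.20% at shared sites, 3.78% over all autosomal peaks and 13.5% at those that missed a TXY list. The stem-only share was above the shared share on 19 of 19 autosomes, with separate intervals on 13. All these sites come from 1 sample, so the autosomes are not replicates. Allele shares of neighbouring stem-only sites up to 2 kb apart were correlated (Pearson r 0.35, outside chromosome 12), which the intervals do not cover. Outside chromosome 12 it ran from 2.96% to 8.68% by chromosome, against 0.618% to 2.47% at shared sites.

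The same order was seen within bins of allelic reads. Among sites with 40 to 79 allelic reads (median 58 in both classes), 357 of 2177 stem-only sites had a first-listed share under 30% or over 70%, which is 16.4% (14.9% to 18.0%). At shared sites it was 119 of 2260, 5.27% (4.38% to 6.27%), and over all 6786 autosomal peaks of that depth 13.2%. With 160 or more allelic reads, 16.1% of 925 stem-only sites and 4.86% of 3044 shared sites leaned this far. Median depths were 207 and 242. Over all autosomal peaks of that depth the share was 8.82%. Without chromosome 12 the shares were 10.5% at stem-only sites, 0.880% at shared sites and 3.59% over all peaks. Between 10 and 19 reads, where counting error is large, the shares with all autosomes were 28.4% and 19.97%, and 25.2% over all peaks. After subtracting binomial counting error, the allelic share still varied between sites outside chromosome 12 (sites with at least 20 allelic reads). The standard deviation was 12.9 points at stem-only sites, 7.09 points at shared sites and 10.6 points over all autosomal peaks. At sites with no NPC peak that missed a TXY list it was 16.4 points.

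**Figure D3:**
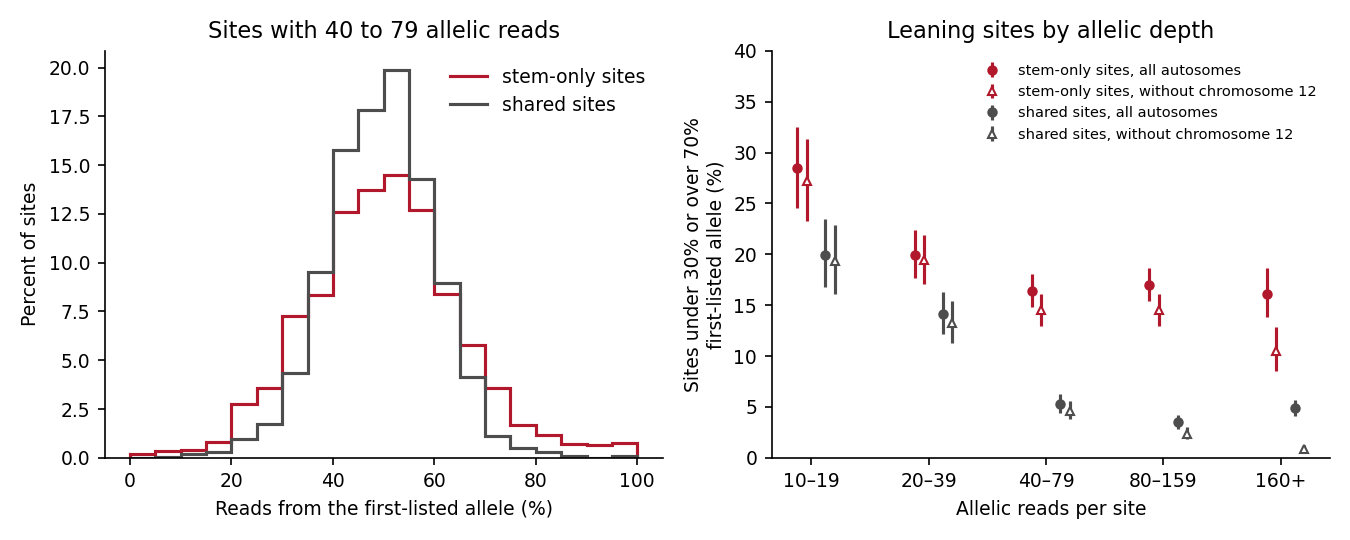
Left, first-listed allele share at sites with 40 to 79 allelic reads, as percent of the 2177 stem-only and 2260 shared sites. Right, percent of sites under 30% or over 70% by allelic depth with exact 95% intervals, with all autosomes (filled) and without chromosome 12 (open): 16.4% of stem-only and 5.27% of shared sites leaned this far at 40 to 79 reads.

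Sites held by more progenitor lists were in general less often unequal, though not at each step. Among mESC peaks in all 4 TXY lists, 6.69% were unequal with 0 NPC lists, 4.58% with 1, 6.08% with 2, 3.32% with 3, 4.05% with 4, 3.08% with 5 and 1.54% with 6. From 0 to 5 lists the median reads per site stayed between 118 and 130, and with 6 they were 249. The interval of the stem-only class (6.12% to 7.31%) overlapped those for 1 list (3.23% to 6.28%) and 2 lists (4.30% to 8.32%) and lay above those for 3, 4, 5 and 6 lists. All of these values include chromosome 12. Without it the stem-only share was 5.76% (5.21% to 6.36%), and the shares for 1 to 6 lists are not given without it.

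Both directions of inequality occurred. The first-listed allele was the low one at 218 stem-only sites (3.15%) and the high one at 245 (3.54%), next to 3.21% and 1.78% over all autosomal mESC peaks. Without chromosome 12 the numbers were 135 low (2.09%) and 237 high (3.67%), next to 1.93% and 1.85% over all autosomal mESC peaks. The low class was there close to the share over all peaks. The TXY requirement of the rule bears on this split. Sites with no NPC peak that missed at least 1 TXY list had a low first-listed allele in 16.6% and a high one in 2.34% of 1667 cases. By number of TXY lists, from 0 to 4, the low class made up 31.3%, 20.7%, 16.0%, 10.6% and 3.15%. The high class stayed between 1.76% and 3.54%. Requiring all 4 TXY lists thus left out 277 sites with a low first-listed allele and 39 with a high one.

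Among the sites that stayed, sites with a high first-listed allele stood higher in the TXY lists and lower in the mESC libraries than sites with a low one. Stem-only sites with a low first-listed allele stood at median percentiles of 79.7 and 77.8 in deltaRepA with and without doxycycline and of 71.6 and 76.7 in WT with and without. Sites with a high first-listed allele stood at 92.1, 90.9, 85.1 and 88.4 in the same lists, and sites between at 87.6, 85.9, 83.1 and 85.6. In mESC libraries 1 and 2 the low class stood at 79.1 and 77.0, the high class at 68.7 and 65.2 and those between at 76.8 and 73.4. The high class also had fewer mESC reads, with a median of 105 against 141 in the low class and 136 between, and the part of this was not tested. Without chromosome 12 the order of the low and high classes was kept in all 6 lists. Shared sites did not hold this order in every TXY list. Their high class (54 sites) and low class (97 sites) stood at 90.2 and 90.5 in deltaRepA with doxycycline, 90.3 and 88.9 without, 90.3 and 91.7 in WT with doxycycline and 92.1 and 92.0 without, and at 77.9 and 88.7 in mESC library 1 and 73.7 and 85.7 in library 2. Lists of 1 line share their cells, so these 6 are not 6 independent checks.

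Of the 5 unequal stem-only sites with most allelic reads, 4 lay on chromosome 12, with first-listed shares of 16.2% to 19.5%. The fifth, on chromosome 3 at 144648891 to 144649519, had 74 first-listed and 300 second-listed reads (19.8%, 15.9% to 24.2%). It stood at percentiles 93.9 and 93.1 in deltaRepA with and without doxycycline, 78.0 and 68.2 in WT with and without, and 95.8 and 97.4 in mESC libraries 1 and 2. The next 4 unequal sites outside chromosome 12 by allelic reads were chosen after values were seen. On chromosome 1 the site at 142325847 to 142326251 had 306 first-listed and 38 second-listed reads (89.0%). It stood at percentiles of 99.98 to 99.99 in the 4 TXY lists and at 98.3 and 99.2 in the mESC libraries. On chromosome 9 the site at 7633907 to 7634457 had 299 first-listed and 37 second-listed reads (89.0%), with percentiles of 99.5 and 99.5 in deltaRepA, 94.1 and 97.7 in WT and 99.3 and 94.2 in the mESC libraries. On chromosome 13 the site at 67899566 to 67900355 had 17 first-listed and 279 second-listed reads (5.74%), with percentiles of 15.6 and 60.6 in deltaRepA, 52.3 and 63.4 in WT and 89.3 and 81.9 in the mESC libraries. The site on chromosome 10 at 47351163 to 47351767 had 64 first-listed and 298 second-listed reads, with percentiles of 99.6 and 99.5 in deltaRepA, 99.2 and 99.2 in WT and 98.5 and 96.8 in the mESC libraries. The first-listed allele was thus low at 2 of these 4 sites. The lists differ in length, so each percentile is set against the stem-only median of its own list. The site on chromosome 13 stood below that median in all 4 TXY lists and above it in both mESC libraries. The site on chromosome 10 stood above it in all 6 lists.

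Reads at stem-only sites could be given to an allele more often than reads at shared sites. Of the reads at stem-only sites 49.2% were allelic, against 36.6% at shared sites and 40.1% over all autosomal mESC peaks. Without chromosome 12 the values were 48.9%, 36.4% and 39.7%. Sites with no NPC peak that missed a TXY list were close to stem-only sites, with 47.3%, and 46.9% without chromosome 12. A read is allelic only if it covers a base that differs between the parental strains. The share of sites with at least 10 allelic reads was 85.7% for stem-only and 86.8% for shared sites.

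Chromosome 1 had the highest share of stem-only sites. There 759 of 2006 mESC peaks were members, 37.8%, with a lower 95% bound of 35.7%, while the other 18 autosomes ran from 24.5% on chromosome 11 to 32.1% on chromosome 3. It stood high on both parts of the rule. On chromosome 1, 42.7% of mESC peaks had no NPC peak, where other autosomes had 31.3% to 46.6%, and 88.6% of these were in all 4 TXY lists, where others had 66.3% to 86.2%. Median reads per mESC peak were 152 on chromosome 1, the same as over all autosomes. Chromosome 12 had the most peaks without an NPC peak (46.6%) and the fewest of those in all TXY lists (66.3%), so its share of members, 30.9%, was close to that of all autosomes.

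**Figure D4:**
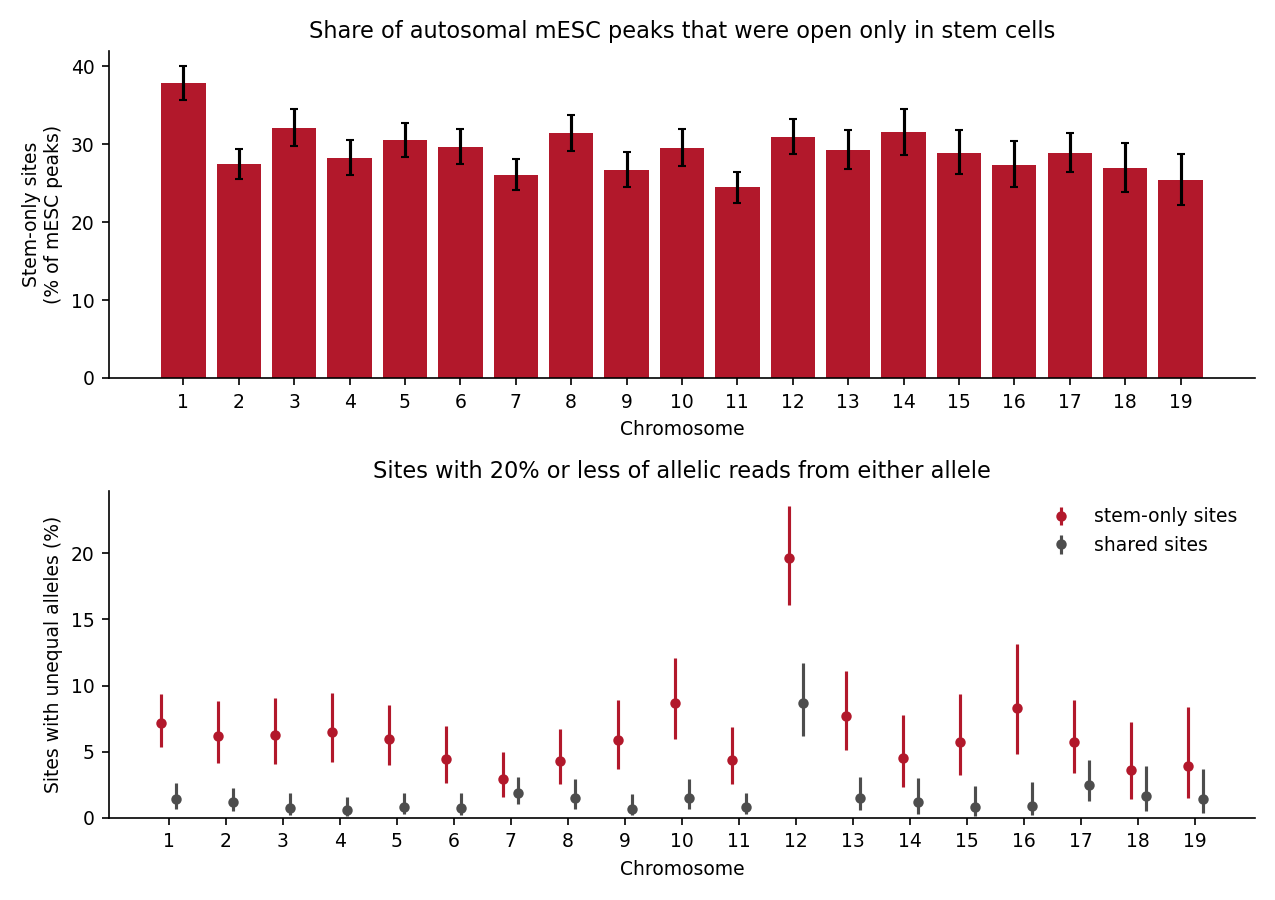
Top, percent of the mESC peaks of each autosome that were stem-only, with exact 95% intervals. Bottom, percent of stem-only and shared sites with unequal alleles by autosome: chromosome 1 is highest above (37.8%), and the stem-only point lies above the shared point on all 19 autosomes below.

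Stem-only sites tended to be neighbours of each other. Within 10 kb after a stem-only site, the next mESC peak was stem-only in 915 of 2150 cases, 42.6% (40.5% to 44.7%), and after any other mESC peak in 1197 of 5285, 22.6% (21.5% to 23.8%). Within 5 kb the shares were 48.1% and 19.02%, and within 50 kb 35.4% and 24.7%. Peaks that are neighbours can overlap the same TXY or NPC peak and then meet or miss that part of the rule together. The 8070 members matched only 7759 to 7788 distinct peaks in each TXY list. The part of this in the shares was not tested. When sites less than 12.5 kb apart were joined, 6021 members (74.6%) stood alone and 2049 (25.4%) fell into groups of 2 or more, of which 29 held at least 4 sites and 8 at least 5.

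The group with most members lay on chromosome 1 at 84846494 to 84887362, with 8 stem-only sites in 40.9 kb and no other mESC peak between them. Progenitor peaks did lie between them, with 11 entries over the 6 NPC lists inside the span. The sites of the group held 126, 260, 152, 134, 496, 105, 183 and 149 reads in order along the chromosome. The −log10 p ranged from 7.86 to 14.5 in mESC library 1 and from 6.24 to 16.6 in library 2, from 5.98 to 21.7 and 5.70 to 20.5 in deltaRepA with and without doxycycline, and from 3.54 to 26.1 and 4.18 to 26.0 in WT. Its first-listed allele held 43.8% (40.2% to 47.3%) of allelic reads. The site with 496 reads held the most, and a different site, with 126 reads, had the highest −log10 p in library 1.

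Next came 2 groups on chromosome 12. The one at 87810936 to 87845472 held 7 stem-only sites among 11 mESC peaks in 34.5 kb, with 227, 482, 287, 131, 356, 1205 and 191 reads and 24.0% (22.0% to 26.1%) first-listed reads. The other, at 111709535 to 111743573, held 6 stem-only sites among 7 peaks, with 247, 260, 206, 176, 317 and 446 reads and 31.9% (29.2% to 34.7%). Groups of 5 lay on chromosome 3 at 133181617 to 133197422 and at 34633850 to 34659274, on chromosome 15 at 97199545 to 97225350, on chromosome 19 at 55787191 to 55807412 and on chromosome 13 at 119041798 to 119067897. The first-listed share in these ran from 45.3% to 52.4%, apart from 31.6% in the last.

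**Figure D5:**
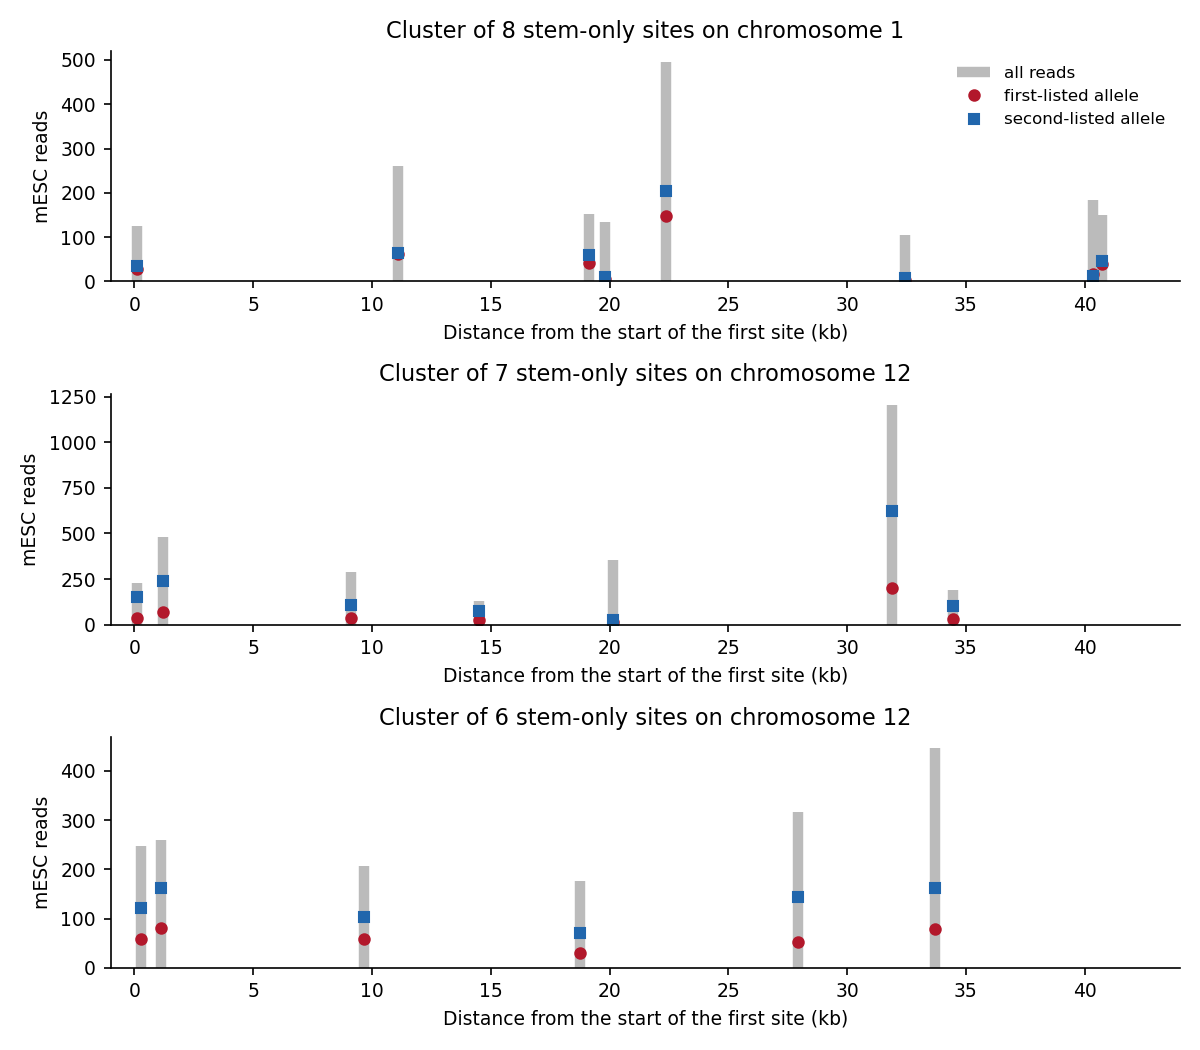
The 3 groups with most stem-only sites, with distance from the start of the first site (kb) across and mESC reads up: grey bars give all reads, circles the first-listed and squares the second-listed allele. A single site per group holds the most reads (496, 1205 and 446), and on chromosome 12 the second-listed allele is higher at every site.

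By windows of 1 Mb, the 4 with the highest number of stem-only sites were all on chromosome 12. They held 20 of 51 mESC peaks (39.2%) at 81 to 82 Mb, 19 of 57 (33.3%) at 77 to 78 Mb, 18 of 37 (48.6%) at 103 to 104 Mb and 18 of 68 (26.5%) at 88 to 89 Mb, next to 29.3% over all autosomes. The number in a window did not give its share, since 18 members stood among 37 peaks in 1 window and among 68 in another. Windows with fewer members but higher shares, named after their values were seen, held 66.7% of 21 peaks at 84 to 85 Mb of chromosome 1, 60.9% of 23 at 104 to 105 Mb of chromosome 5 and 57.1% of 28 at 122 to 123 Mb of chromosome 14. In the 4 windows of chromosome 12 the first-listed allele held 25.7%, 23.9%, 28.1% and 30.8% of the members' allelic reads. Windows elsewhere followed with 17 members, among them 138 to 139 Mb on chromosome 1, where 17 of 31 peaks were stem-only and the first-listed share was 43.97%. The median over the 2105 windows with a member was 3. The strongest member of the first window, at 81217575 to 81218185, held 833 reads. In the other 3 windows it was the site at 77648788 to 77649239 with 393 reads, at 103945076 to 103945691 with 563 and at 88028773 to 88029461 with 428.

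The distance to the nearest progenitor peak varied widely. The median distance to the nearest peak of any NPC list was 5542 bp, with quartiles of 1998.5 and 13459 bp, and 67.5% of members had one within 10 kb. The 2096 mESC peaks that lacked an NPC peak and missed a TXY list had a median distance of 4519 bp, so stem-only sites were not nearer to progenitor peaks than these. At the edge of the rule, 141 members (1.75%) lay within 0.1 kb of an NPC peak. The nearest touched one, on chromosome 19 at 23226478 to 23226769 with 128 reads, and the next 4 were 2 to 4 bp away with 60 to 120 reads. The 47 members within 50 bp of one had a median of 88 reads. On the other side of the limit, 63 of the 16686 sites with all 4 TXY lists and an NPC peak were left out for an overlap of 50 bp or less, with a median of 98 reads.

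A small set lay in stretches where progenitors had no peak at all. The files held 190 autosomal stretches of 500 kb or more without a peak in any NPC list, and 103 of them contained a total of 233 stem-only sites. The one with most members, chosen after its values were seen, ran over 590 kb of chromosome 7 from 49948544 to 50538217. All 11 mESC peaks in it were stem-only, with 76 to 410 reads each and 44.6% first-listed reads. In any such stretch the NPC part of the rule is met by the choice of the stretch. Of all autosomal mESC peaks without an NPC peak, 79.4% were stem-only. The strongest by reads, at 50469026 to 50469490, had a −log10 p of 38.2 and 28.7 in the mESC libraries, 32.4 and 31.7 in deltaRepA with and without doxycycline, and 34.8 and 42.7 in WT. Its allelic reads were 13 first-listed and 49 second-listed.

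On chromosome 5, all 9 mESC peaks in a stretch of 1155 kb from 126560219 to 127715520 were stem-only, with 74 to 267 reads and 42.5% first-listed reads. The 9 lay at 127103486 to 127715450, in the distal part of the stretch. In 2 longer stretches some mESC peaks were not stem-only. Of 11 mESC peaks in 1593 kb of chromosome 13 from 65412473, 7 were stem-only, and of 7 in 1472 kb of chromosome 8 from 42946607, 6 were, with up to 588 reads. The members farthest from an NPC peak were on chromosome 17 at 77666952 to 77667254, with 130 reads at 891432 bp, and on chromosome 2 at 87166365 to 87166682 and 87374903 to 87375456, with 88 and 222 reads. Among the 5 farthest were also a site of chromosome 4 (17019080 to 17019613), which held 399 reads, and a site of chromosome 13 (66091923 to 66092362), which held 258.

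Where a stem-only site leaned to an allele, its neighbour was compared with it. Outside chromosome 12, in 290 pairs of neighbours no more than 2 kb apart with at least 20 allelic reads each, 41 had a first site under 30% or over 70%, and in 28 of these the second site lay on the same side of 50%. The second site did not itself need to lean. At 2 to 10 kb it was 22 of 35, and at 10 to 50 kb 50 of 76. For shared sites it was 13 of 21 at up to 2 kb, 5 of 11 at 2 to 10 kb and 21 of 45 at 10 to 50 kb. The numbers are small and neighbours share the library and the local sequence.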

How the data were processed

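The authors deposited peak lists made, per the submitters' processing notes, with cutadapt, Bowtie2 and MACS2 on build mm9. Not given in the sources used here were versions, settings, duplicate handling, any Tn5 shift and the way alleles were assigned. The reproducible lists deposited by the authors hold raw read counts per peak, counts per allele and a text with −log10 p of both libraries. It is not stated whether these counts come from 1 library or from both. Fold enrichment (a ratio) and −log10 p and q in the library and TXY lists are the authors' MACS2 values and were used to rank or filter peaks within a list. Where −log10 p of several lists stands side by side, the lists differ in depth and the values are not compared.

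Overlaps, gaps and shares came from scripts in python 3.11.15 that used pandas 2.3.3, scipy 1.17.1 and numpy 2.4.6, with figures from matplotlib 3.10.9. The steps were tested on simulated data. Members, lists and rules were chosen with earlier results of these data known. Named sites were the 10 members with most reads, the 5 unequal members with most allelic reads, the 5 nearest to and farthest from an NPC peak, and the strongest in the 3 fullest windows. Ties were kept. Gene lists and sequence words chosen for this work were not used, since no mm9 annotation or genome was used here. Starts are printed 1-based.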

Additional observations from a re-analysis of the deposited data

How the results depend on the processing

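The number of stem-only sites kept within 1.5 times of 8070 under every alternative tried, from 5407 (TXY peaks with −log10 q of at least 5) to 10662 (reproducible NPC lists only). Leaving out 1 NPC library list or 1 TXY list at a time gave 8170 to 8542, and the unequal share stayed between 5.89% and 7.04% under all of these rules. Values with no test moved as follows. Without chromosome 12 the pooled first-listed share was 50.5%. The unequal share of stem-only and of shared sites was 6.06% and 1.08% with at least 20 allelic reads, 1.87% and 0.377% with a limit of 10%, and 5.76% and 1.20% without chromosome 12. A stem-only site exceeded a shared one in 25.9% of pairs by reads and in 30.8% by reads per 100 bp. By fold enrichment in place of −log10 p the pair values were 38.6% and 39.4% in deltaRepA with and without doxycycline, 26.4% and 32.2% in WT, and 35.3% and 34.1% in mESC libraries 1 and 2. The fullest window of 500 kb held 15 members. The chromosome 1 share, under alternatives chosen after seeing the data, was 47.8% with reproducible NPC lists only (others 33.8% to 42.3%) and 28.7% with the stricter TXY limit (others 14.8% to 24.1%). Position relative to genes, gene lists and sequence words were not run. No paired analysis was possible because no result here comes from a test between samples and each group has a single replicate number. Depth limits allelic statements to sites with at least 10 allelic reads.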

Other observations

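Stem-only sites without any allelic read numbered 485 (6.01%), with 31 to 2538 reads and a median of 118. The share was 6.69% at shared sites and 6.84% over all autosomal mESC peaks. Beside the site on chromosome 2 at 176858397, that chromosome held another at 177570567 to 177571236 with 735 reads and a −log10 p of 31.6 and 35.3 in the mESC libraries. A group of 4 on chromosome 17 at 49169201 to 49183920 held 658 reads and none from either allele. On chromosome 11 the sites at 3035026, 3035659, 3057791 and 3071307 held 2538, 983, 1362 and 521 reads with −log10 p of 8.48, 7.83, 7.42 and 4.73 in library 1. Across the 8070 members, Spearman's rho between reads and −log10 p of library 1 was 0.69.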
